A study of Mus musculus with 12 samples.

Results

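The 39 genes described here encode the clotting factors, the anticoagulant and fibrinolytic proteins and the complement components that the liver makes for the blood, together with 1 complement receptor. They were chosen by gene symbol for these roles, and each was found in the deposited table of 17432 genes. RNA-Seq measured them in the livers of 12 male C57BL/6J wild-type mice aged 8 to 10 weeks, a common inbred strain, with no transgene or knockout in either group. Food was given in daytime on 3 days, on each of which the mice were acclimated to a treadmill with a short run. On the day of the experiment food was returned and then removed after 3 hours. The 6 Exercise mice then ran on the treadmill at 14 m/min for 3 hours, a moderate aerobic bout in the postprandial state. The 6 Sedentary mice did not run on that day, and livers of both groups were taken at the same time. The comparison asks which of these secreted-protein genes had a different RNA level in liver after the bout.

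Clotting runs through a chain of serine proteases in which each enzyme cuts and activates the next, ending with thrombin, which turns fibrinogen into fibrin. Serpins, protein C with its cofactor protein S, and tissue factor pathway inhibitor hold this chain back, and plasmin dissolves the fibrin. Complement is a parallel protease chain that starts from antibody, from sugars bound by lectins or by spontaneous turnover, meets at C3, and ends in a pore built from the terminal components. Hepatocytes make most of the circulating proteins of both systems, and several of them belong to the acute-phase proteins whose synthesis inflammation changes.

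Library totals ran from 18745379 to 19324461 estimated counts, so counting error was small for nearly all of the genes, and livers of 1 group differed by far more than such error, with a chi-square of 7.95 to 45.2 per gene over 30 pairs. Hepatocyte markers dominated each library, with a summed level of 111143 to 151181 CPM (counts scaled to the library size) in Sedentary and 138804 to 159664 CPM in Exercise livers, which fits the labelled tissue. The summed level of 6 neutrophil markers was at most 5.62 CPM in any liver, and that of 6 platelet markers at most 4.86 CPM. In bulk liver, fewer cells of a type and less RNA per cell cannot be told apart.

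Of the 39 genes, 38 had enough counts to be tested, and 11 of them (28.9%) passed edgeR's quasi-likelihood test at an adjusted p threshold of 0.05, referred to as called below. The background was 42.4% of the 12344 genes tested. Levels rose for 7 members (F2, F9, F12, Pros1, C9, Cfi and Serping1), where 21.1% of all genes tested were called higher, and fell for 4 (Proz, Mbl1, Masp1 and Masp2), where 21.3% were called lower. None of the members reached a 2-fold change, against 3.94% of all genes tested that were called with at least that size. The median log2 fold change was 0.044 for the members and -0.003 for all genes tested, and the median absolute log2 fold change was 0.12 against 0.21. The largest changes among the members were 0.32 upwards and -0.41 downwards. Restricted to genes that averaged 100 CPM or more, 9 of 31 members (29%) were called against 38.3% of 1201 genes, with median absolute log2 fold changes of 0.11 and 0.13.

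The direction of the smaller changes depended on how libraries were scaled. The counts given so far use trimmed mean of M values (TMM) scaling. With library size alone, the median log2 fold change of all genes tested moved from -0.003 to -0.10 and that of the members from 0.044 to -0.049. The split of calls then changed from 7 higher and 4 lower to 1 higher and 7 lower among the members, where 14.3% of all genes tested were called higher and 30.3% lower. Pros1 was the member still called higher, and F7, F10 and F11 joined Proz, Mbl1, Masp1 and Masp2 among those called lower. Pros1, Proz, Masp1 and Masp2 were called in the same direction in each of the 21 alternative analyses. Single livers also mattered for the members. Without Sedentary replicate 6, 7 of them were called (4 higher and 3 lower), where 4892 of 12421 genes tested were called. Without Sedentary replicate 5, 13 were called, where 5222 of 12436 genes tested were called.

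**Figure D1:**
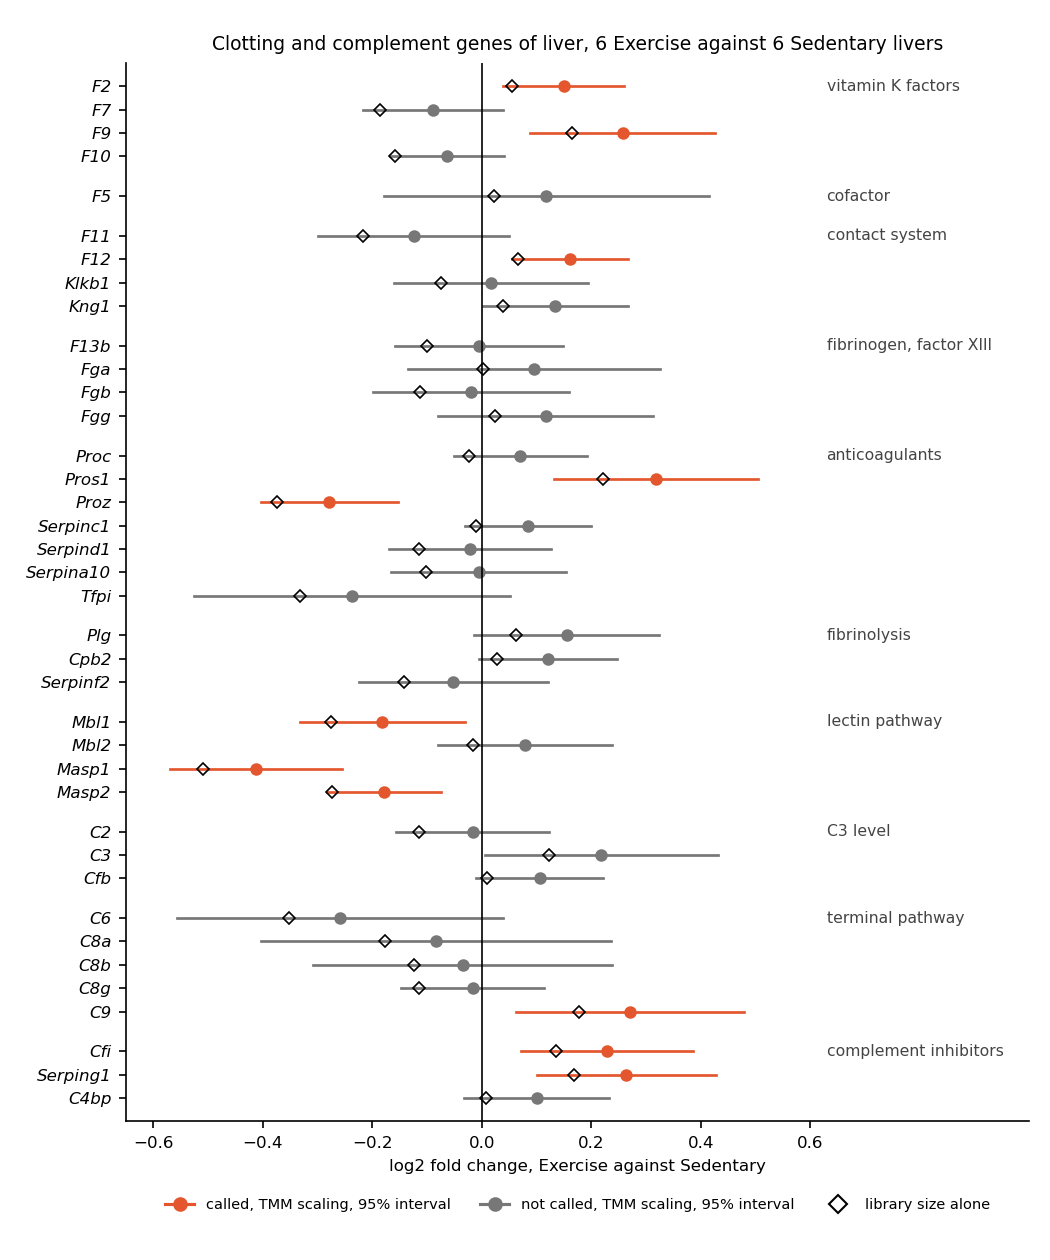
Log2 fold change of each of the 38 tested genes, Exercise against Sedentary, grouped by role. Filled circles with 95% confidence intervals are from edgeR with TMM scaling, orange where called, and open diamonds are the values with library size alone. The values lie between -0.41 for Masp1 and 0.32 for Pros1, and the diamonds lie to the left of the circles for each gene.

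The level per length, in the authors' FPKM, ranged widely from fibrinogen to the C5a receptor. In Sedentary livers 6 of the genes had a mean of at least 1000 FPKM, 23 at least 100 and 37 at least 10, and 8 were among the 200 most abundant genes of the table. Fgb, the fibrinogen beta chain, had the highest mean level at 1960 ± 159 FPKM (SD, n = 6), followed by C3 at 1930 ± 66.1 FPKM (SD, n = 6), and their ranges overlapped. Next in order came Fgg, Serpinc1, Fga and Kng1, from 1551 down to 1191 FPKM. F2 with 779 FPKM and Plg with 597 FPKM were each separated from their neighbours in the order by ranges that did not overlap. Of the 38 neighbouring pairs in the order, 27 had overlapping ranges, so that the middle of the order cannot be resolved. At the low end, Tfpi had a mean of 1.99 ± 0.311 FPKM (SD, n = 6). C5ar1, the receptor for the complement fragment C5a and typical of myeloid cells rather than hepatocytes, had 0.193 ± 0.0907 FPKM (SD, n = 6) in Sedentary and 0.223 ± 0.0979 FPKM (SD, n = 6) in Exercise livers. Its 0.252 to 0.985 CPM over the 12 livers were too few counts to test.

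**Figure D2:**
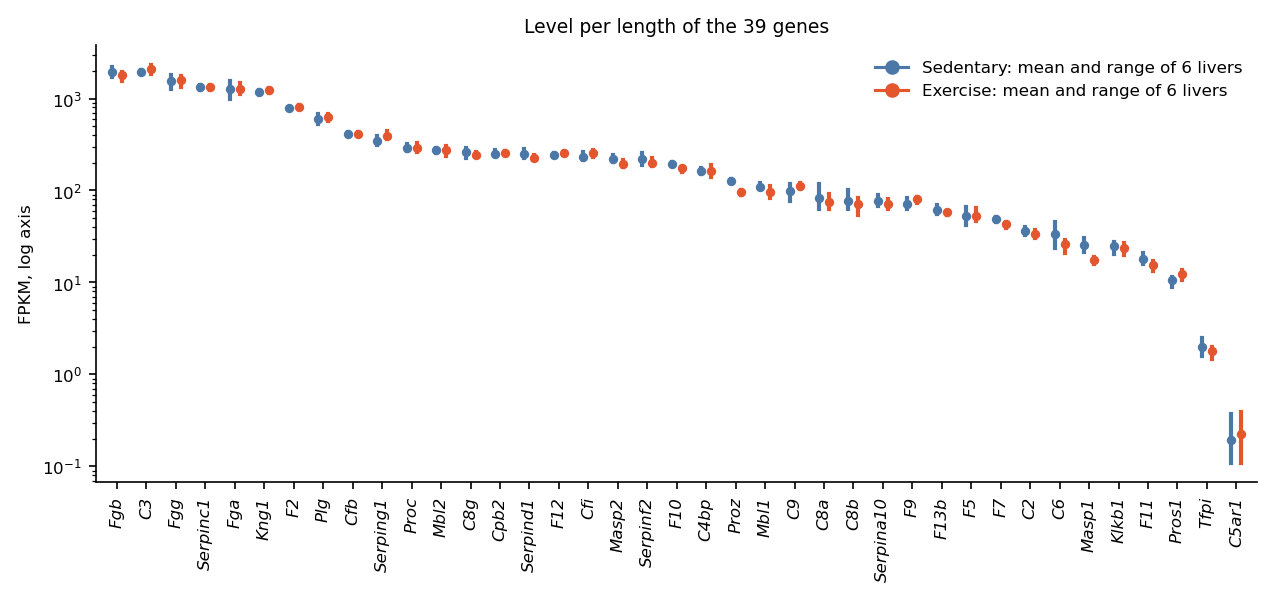
Level per length in the authors' FPKM, on a log axis, of the 39 genes in the order of their Sedentary mean. Points are means and bars the range of 6 livers, blue for Sedentary and orange for Exercise. In Sedentary livers Fgb and C3 stand at 1960 and 1930 FPKM, Tfpi at 1.99 FPKM and C5ar1 at 0.193 FPKM.

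Among the 13 clotting factors, 3 rose and none fell with TMM scaling, while with library size alone none rose and 3 (F7, F10 and F11) fell. The 3 of 13 (23.1%) stand beside 21.1% of all genes tested called higher with TMM scaling and 30.3% called lower with library size alone. F2 encodes prothrombin, the precursor of thrombin (gene ID 14061, chr2:91612397-91636457 on GRCm38.p6). Its level was 1441, 1481 and 1610 CPM (lowest, median and highest of 6) in Sedentary livers and 1632, 1659 and 1697 CPM in Exercise livers. The groups did not overlap, and the Exercise livers were tightly placed above the highest Sedentary one. The log2 fold change was 0.15 with a standard error (SE) of 0.0525 (edgeR adjusted p = 0.0287, two-sided exact permutation p = 0.00216, the smallest that 6 against 6 allows).

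F9 encodes factor IX, the vitamin K-dependent protease missing in hemophilia B (gene ID 14071, chrX:59999329-60030760). Sedentary livers had 156, 182 and 230 CPM and Exercise livers 201, 218 and 242 CPM. The groups overlapped because 1 Sedentary liver, replicate 5, reached the upper Exercise range. This was a log2 fold change of 0.26 (SE 0.0806, edgeR adjusted p = 0.0156, two-sided exact permutation p = 0.0173). For F12, the contact-system protease factor XII (gene ID 58992, chr13:55417958-55426804), Sedentary livers had 429, 449 and 482 CPM and Exercise livers 493, 513 and 517 CPM. These groups were separated by a narrow gap. The log2 fold change of F12 was 0.16 (SE 0.0506, edgeR adjusted p = 0.0158, two-sided exact permutation p = 0.00216). With library size alone the log2 fold changes of F2, F9 and F12 were 0.06, 0.16 and 0.07, and none of the 3 was called. F2 also missed the threshold without Sedentary replicate 2 or 6 or Exercise replicate 2 or 5, with edgeR adjusted p values of 0.0508 to 0.0587, and without the low-count filter (0.0531).

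The other vitamin K-dependent proteases were not called. F7, the factor VII that pairs with tissue factor, had a log2 fold change of -0.09, and F10, the factor X that makes thrombin, of -0.06. F5, the cofactor of factor X, had 0.12. In the contact system, F11 (factor XI) had -0.12, Klkb1 (plasma prekallikrein) 0.02 and Kng1 (kininogen, the source of bradykinin) 0.13 with an edgeR adjusted p of 0.0945. F13b, the carrier subunit of the fibrin-crosslinking factor XIII, had -0.0047.

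The 3 fibrinogen chains were not called, with log2 fold changes of 0.10 for Fga, -0.02 for Fgb and 0.12 for Fgg. Their 95% confidence intervals were -0.14 to 0.33, -0.20 to 0.16 and -0.08 to 0.31. Fga levels were 2765, 3634 and 4627 CPM in Sedentary and 3401, 3846 and 4750 CPM in Exercise livers, so the ranges shared most of their length. Fgb levels were 2637, 3125 and 3794 CPM in Sedentary and 2685, 3086 and 3554 CPM in Exercise livers. Fgg had 1969, 2494 and 3106 CPM in Sedentary and 2349, 2701 and 3162 CPM in Exercise livers. The spread between livers of 1 group was thus wider than the shift between the groups for each chain.

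The 3 chains varied together from liver to liver. Over the 12 livers, Pearson's r was 0.958 for Fga with Fgg (Spearman's rho 0.902; permutation p of 2e-05 and 0.0001, 6e-05 and 0.0004 after Benjamini-Hochberg adjustment over 3 pairs). For Fga with Fgb, r was 0.889 and rho 0.846 (permutation p of 0.0002 and 0.0009, adjusted 0.0002 and 0.001), and for Fgb with Fgg, 0.890 and 0.811 (permutation p of 0.0001 and 0.002, adjusted 0.0002 and 0.002). Without the 2 livers farthest from the median, r was between 0.822 and 0.893. Within Sedentary livers it was 0.913 to 0.984 and within Exercise livers 0.953 to 0.977. The libraries share their scaling factor across genes, which adds to any such r, and most members shifted together in some livers. Over the 700 other pairs of tested members, r had a median of 0.24 and ran from -0.84 to 0.98, and in 7 of these pairs it was at least as high as the lowest r of the fibrinogen pairs. The chains also lie side by side on chromosome 3, with gaps of 11096 and 8618 bases between them. Their promoter windows are shown because the products of these 3 genes form 1 protein. Each is the 250 bases before the start of the gene on its own strand, from RefSeq on GRCm38.p6, with capitals marking matches to the motifs searched.
Fga, chr3:83025903-83026152, plus strand: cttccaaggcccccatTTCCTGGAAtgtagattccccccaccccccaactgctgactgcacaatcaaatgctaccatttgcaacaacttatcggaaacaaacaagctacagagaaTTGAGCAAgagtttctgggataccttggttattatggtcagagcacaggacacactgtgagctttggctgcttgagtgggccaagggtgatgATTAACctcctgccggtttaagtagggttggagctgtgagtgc
Fgb, chr3:83049864-83050113, minus strand: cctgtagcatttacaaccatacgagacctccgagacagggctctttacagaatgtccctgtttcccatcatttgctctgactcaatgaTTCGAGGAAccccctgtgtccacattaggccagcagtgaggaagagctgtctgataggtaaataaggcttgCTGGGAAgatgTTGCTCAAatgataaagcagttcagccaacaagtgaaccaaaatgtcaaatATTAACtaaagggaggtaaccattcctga
Fgg, chr3:83007474-83007723, plus strand: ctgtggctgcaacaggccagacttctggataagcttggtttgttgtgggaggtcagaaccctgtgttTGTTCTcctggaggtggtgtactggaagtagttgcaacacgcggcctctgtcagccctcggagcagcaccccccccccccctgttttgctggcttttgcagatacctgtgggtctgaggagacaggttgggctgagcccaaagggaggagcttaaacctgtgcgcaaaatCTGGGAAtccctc
In the Fga and Fgb windows the capitals mark a C/EBP motif (TTGCNNAA), an HNF1 half-site (GTTAAT, here on the minus strand as ATTAAC) and a STAT motif (TTCNNNGAA), with an IL-6 type 2 element (CTGGGAA) besides in Fgb. In Fgg they mark a glucocorticoid receptor half-site (TGTTCT) and an IL-6 type 2 element. The C/EBP match begins 135 bases before the start in Fga and 80 bases before it in Fgb.

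Among the 7 anticoagulant genes, Pros1 rose and Proz fell, where 21.1% of all genes tested were called higher and 21.3% lower. Pros1 encodes protein S, the cofactor with which activated protein C destroys factors V and VIII (gene ID 19128, chr16:62854307-62929346). Sedentary livers had 25.6, 31.7 and 36.8 CPM and Exercise livers 34.8, 39.5 and 46.8 CPM. The ranges overlapped at their ends, and Exercise replicate 3 had the highest level. The log2 fold change of 0.32, a rise of 24.7%, was the largest upward change of the members (SE 0.0885, edgeR adjusted p = 0.00774, two-sided exact permutation p = 0.0108). It was 0.22 with library size alone.

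Proz encodes protein Z, the cofactor with which the serpin Serpina10 inhibits activated factor X (gene ID 66901, chr8:13060584-13076026). Its level was 375, 400 and 451 CPM in Sedentary and 311, 331 and 363 CPM in Exercise livers. Each Exercise liver was below each Sedentary liver. Proz fell by 0.28 on the log2 scale (SE 0.0594, edgeR adjusted p = 0.00103, two-sided exact permutation p = 0.00216). Its partner Serpina10 had a log2 fold change of -0.01 with a 95% confidence interval of -0.17 to 0.15. Proz follows F7 and F10 on chromosome 8, with a gap of 3907 bases to F10, and neither neighbour was called with TMM scaling (both fell with library size alone, by 0.19 and 0.16 on the log2 scale). The promoter windows of the called anticoagulant genes are shown since they moved in opposite directions.
Pros1, chr16:62854057-62854306, plus strand: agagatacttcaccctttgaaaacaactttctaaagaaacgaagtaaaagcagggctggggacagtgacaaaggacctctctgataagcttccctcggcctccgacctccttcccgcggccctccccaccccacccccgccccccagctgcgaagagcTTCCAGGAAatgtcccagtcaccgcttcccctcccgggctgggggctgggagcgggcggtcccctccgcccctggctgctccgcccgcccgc
Proz, chr8:13060658-13060907, plus strand: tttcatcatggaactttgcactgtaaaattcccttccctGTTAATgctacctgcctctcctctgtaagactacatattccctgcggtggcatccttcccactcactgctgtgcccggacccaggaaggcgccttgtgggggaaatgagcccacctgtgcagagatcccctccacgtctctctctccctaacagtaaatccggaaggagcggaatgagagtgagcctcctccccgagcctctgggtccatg
The capitals mark a STAT motif 92 bases before the start in Pros1 and an HNF1 half-site 211 bases before the start in Proz. The Pros1 window holds 15 CpG dinucleotides, the most among the members' windows, and that of Proz holds 7. The Proz window lies wholly inside RefSeq's span of the gene, before the start that the promoter table uses.

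The remaining anticoagulant genes were not called. Proc, protein C, had a log2 fold change of 0.07, Serpinc1, which encodes antithrombin, 0.08, and Serpind1, heparin cofactor II, -0.02. Tfpi, the inhibitor of the tissue factor and factor VIIa complex, had -0.24 with a wide interval of -0.53 to 0.05 and an edgeR adjusted p of 0.18. Tfpi is made largely by endothelium, and its level was 2.77 to 5.19 CPM over the 12 livers.

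Among the fibrinolysis genes none of 3 was called. Plg, which encodes plasminogen, had 1309, 1492 and 1917 CPM in Sedentary and 1598, 1733 and 1908 CPM in Exercise livers. Its log2 fold change was 0.16 (SE 0.0804, edgeR adjusted p = 0.13). Cpb2, the carboxypeptidase that protects fibrin from plasmin, had 0.12 and Serpinf2, the plasmin inhibitor alpha 2-antiplasmin, -0.05. Without Sedentary replicate 5, Plg and Cpb2 were called higher, with log2 fold changes of 0.23 and 0.17 (edgeR adjusted p of 0.0147 and 0.0148).

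Among the 4 members of the lectin pathway of complement, 3 fell, where 21.3% of all genes tested were called lower. The call of 1 of them, Mbl1, held in 8 of the 21 alternative analyses. Masp1 and Masp2 encode proteases that circulate bound to mannose-binding lectin, in complexes that cut C4 and C2 once the lectin binds sugar. The levels are per gene and do not separate the transcripts of either. Masp1 (gene ID 17174, chr16:23451785-23521240) had 70.8, 81.1 and 96.6 CPM in Sedentary and 54.7, 64.4 and 66.5 CPM in Exercise livers. Each Exercise liver was below each Sedentary liver, and 5 of the 6 Exercise values lay within a few CPM of each other. Masp1 had the largest change of the members, with a log2 fold change of -0.41, a difference of -24.9% (SE 0.0745, edgeR adjusted p = 0.00025, two-sided exact permutation p = 0.00216). Rtp4 overlaps Masp1 on the opposite strand and had a log2 fold change of -0.63 (edgeR adjusted p = 0.00159), and whether reads were counted by strand is not given in the sources used here, so reads of the overlap cannot be assigned. Rtp4 held 2840 counts over all 12 libraries.

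Masp2 (gene ID 17175, chr4:148594622-148615499) had 264, 269 and 290 CPM in Sedentary and 227, 239 and 252 CPM in Exercise livers. The groups did not overlap, as the highest Exercise value lay below the lowest Sedentary one. Masp2 fell by 0.18 on the log2 scale (SE 0.0498, edgeR adjusted p = 0.00772, two-sided exact permutation p = 0.00216). Tardbp, which overlaps Masp2 on the opposite strand, had a log2 fold change of 0.03 (edgeR adjusted p = 0.778). The promoter window of Masp2 is shown because this gene fell without overlap between the groups.
Masp2, chr4:148602294-148602543, plus strand: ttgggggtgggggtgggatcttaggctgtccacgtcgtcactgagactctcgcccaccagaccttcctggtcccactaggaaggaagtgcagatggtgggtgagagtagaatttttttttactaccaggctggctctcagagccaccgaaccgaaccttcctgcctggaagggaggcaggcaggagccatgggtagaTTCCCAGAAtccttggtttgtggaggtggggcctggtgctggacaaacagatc
The capitals mark a STAT motif 53 bases before the start, and the same bases hold an IL-6 type 2 element on the minus strand. This window too lies wholly inside RefSeq's span of the gene, farther in than that of Proz, and before the start that the promoter table uses.

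Among the members, Mbl1 and Mbl2 encode mannose-binding lectins, and other lectin genes were in the further list described below. Mbl1 (gene ID 17194, chr14:41151456-41163904) had 128, 147 and 180 CPM in Sedentary and 122, 132 and 146 CPM in Exercise livers. The ranges overlapped over most of the Exercise range. Its log2 fold change of -0.18 passed narrowly (SE 0.0717, edgeR adjusted p = 0.0491, two-sided exact permutation p = 0.0368) and was called in 3 of the 12 fits that left out 1 liver, those without Sedentary replicate 2 or 4 or Exercise replicate 5. In the other 9 the edgeR adjusted p was between 0.0527 and 0.127. The call was also lost with RLE size factors (edgeR adjusted p = 0.051), without the low-count filter (0.0555) and with limma-voom (adjusted p = 0.0536). Mbl2, with 278 FPKM against 109 FPKM for Mbl1 in Sedentary livers, had a log2 fold change of 0.08 with a 95% confidence interval of -0.08 to 0.24.

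The authors' FPKM carry an estimated transcript length, and for Masp2, Mbl1 and C3 this estimate varied more than for most genes. The log2 of FPKM per count was higher in Exercise than in Sedentary livers by 0.10 for Masp2 and by 0.12 for Mbl1, a size reached by 1.48% of 6914 genes assessed and by no other of the 37 members assessed. In FPKM, which have no TMM factor, Masp2 had a mean of 222 ± 13 (SD, n = 6) in Sedentary and 196 ± 12.4 (SD, n = 6) in Exercise livers, and the ranges of 206 to 244 and 180 to 214 FPKM overlapped. The difference was -0.18 on the log2(FPKM + 0.1) scale, against -0.27 for counts scaled by library size alone. No alternative analysis combined the estimated length with TMM scaling. The part of length in the TMM-scaled changes of Masp2 and Mbl1 was thus not tested. GENCODE lists for Masp2 2 protein-coding transcripts of 3058 and 738 bases and 2 with retained introns of 794 and 1181 bases, and the table does not separate them.

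Of the 3 genes around C3, none was called. C3, the component on which the pathways meet, had 5770, 6850 and 8496 CPM in Sedentary and 6623, 7693 and 9844 CPM in Exercise livers. Most of the Exercise values lay within the Sedentary range, with a log2 fold change of 0.22 (SE 0.101, edgeR adjusted p = 0.0914). Without Sedentary replicate 5 or Exercise replicate 6 it was called, with 0.29 and 0.27 (edgeR adjusted p of 0.0181 and 0.0401). Its spread differed between the units, since the coefficient of variation (CV) over Sedentary livers was 13.9% in scaled counts and 3.42% in FPKM. FPKM per count of C3 had an SD of 0.105 on the log2 scale over the 12 livers, where the median gene had 0.0057 and 1.13% of genes had a larger value. Cfb (factor B, the protease of the alternative pathway) had a log2 fold change of 0.11 and C2 (its counterpart in the classical and lectin pathways) of -0.02. These genes are 87 bases apart on chromosome 17.

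Among the 5 genes of the terminal pore, C9 rose with TMM scaling, where 21.1% of all genes tested were called higher. C9, whose protein polymerizes to line the pore (gene ID 12279, chr15:6445346-6498825), had 145, 200 and 240 CPM in Sedentary and 218, 246 and 248 CPM in Exercise livers. The Sedentary livers were widely spread, and the 2 highest of them, replicates 1 and 3, reached into the Exercise range. C9 rose by 0.27 on the log2 scale (SE 0.0984, edgeR adjusted p = 0.0358, two-sided exact permutation p = 0.0238), and the call was kept in 5 of the 12 fits that left out 1 liver. It was lost without Sedentary replicate 2, 4 or 6 or Exercise replicate 1, 3, 4 or 5, with edgeR adjusted p values of 0.0548 to 0.0769. C6, which binds C5b, had -0.26 with a 95% confidence interval of -0.56 to 0.04. It was called without Sedentary replicate 2 (-0.33, edgeR adjusted p = 0.0483). C8a, C8b and C8g, the chains of C8, had -0.08, -0.04 and -0.02.

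Of the 3 complement inhibitors, Cfi and Serping1 rose with TMM scaling, where 21.1% of all genes tested were called higher. Cfi encodes factor I, the protease that inactivates C3b and C4b (gene ID 12630, chr3:129836727-129875332). Its level was 401, 450 and 543 CPM in Sedentary and 490, 539 and 584 CPM in Exercise livers. The groups overlapped through 1 Sedentary liver, replicate 5. The log2 fold change of Cfi was 0.23 (SE 0.0747, edgeR adjusted p = 0.0198, two-sided exact permutation p = 0.0195). Without Sedentary replicate 6 the log2 fold change was 0.20 and the edgeR adjusted p 0.0503.

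Serping1 encodes the C1 inhibitor, a serpin that blocks C1r and C1s, the lectin-pathway proteases, factor XIIa and plasma kallikrein (gene ID 12258, chr2:84765360-84775444). Sedentary livers had 525, 609 and 664 CPM and Exercise livers 671, 694 and 854 CPM. The groups were separated by a small gap, and Exercise replicate 3 stood above the others. Serping1 rose by 0.26 on the log2 scale (SE 0.078, edgeR adjusted p = 0.0111, two-sided exact permutation p = 0.00216). C4bp, which encodes the cofactor of factor I for C4b, had 0.10 and was not called. With library size alone, C9, Cfi and Serping1 had log2 fold changes of 0.18, 0.14 and 0.17, and none of these was called.

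**Figure D3:**
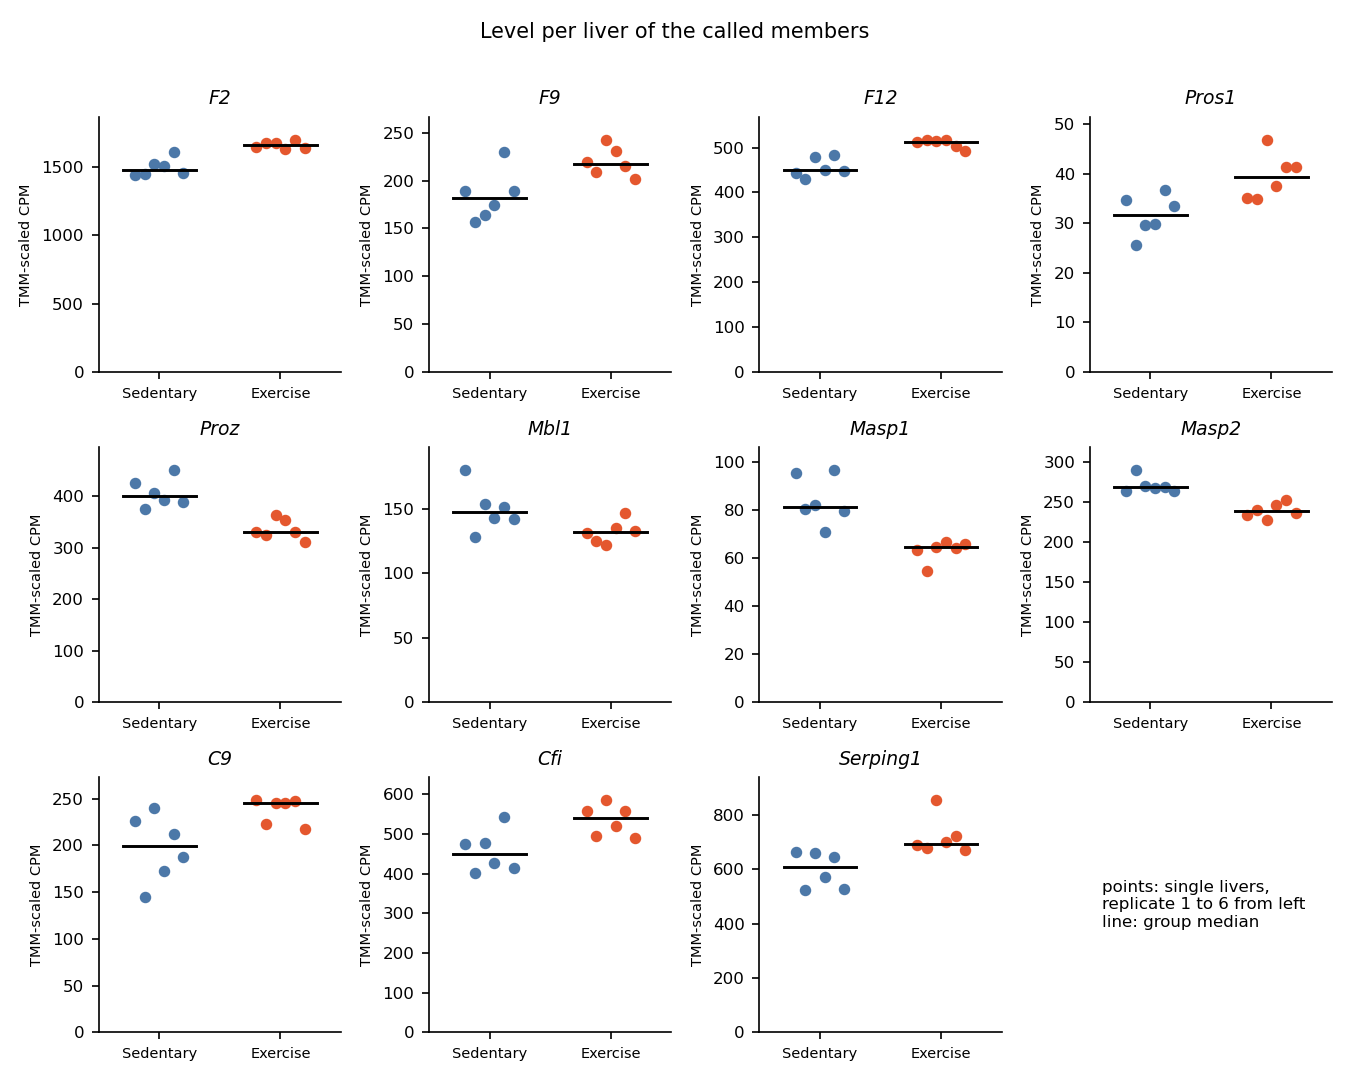
TMM-scaled CPM of the 11 called genes in each liver, blue for Sedentary and orange for Exercise, with points in the order of replicates 1 to 6 and a line at the group median. The groups do not overlap for F2, F12, Proz, Masp1, Masp2 and Serping1, and they overlap for F9, Pros1, Mbl1, C9 and Cfi.

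In CPM with TMM scaling, the groups did not overlap for 6 of the 38 tested members, where this held for 22.3% of all genes tested. In the authors' FPKM they did not overlap for 4 members (Proz and Masp1, and F7 and F10, which were not called with TMM scaling), against 22.4% of all genes tested, and the FPKM ranges of F2, F12, Masp2 and Serping1 overlapped. The remaining 27 members tested were not called, and for 25 of them the 95% confidence interval of the log2 fold change lay within 0.5 of 0 in both directions. That limit is wider than the largest change of any member, -0.41 for Masp1, so it does not show that these genes were unchanged.

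Ratios of counts within a library do not depend on scaling. They were computed for 5 pairs of genes chosen after their values had been seen and are given as a description, with no test. The ratio of Masp1 to Serping1 had a median of 0.147 in Sedentary and 0.0902 in Exercise livers, and that of Masp2 to Serping1 of 0.442 and 0.35. For both ratios each Exercise liver was below each Sedentary liver, as the levels of the genes themselves were apart. Mbl1 to Mbl2 had medians of 0.524 and 0.455 and Proz to its genomic neighbour F10 of 0.871 and 0.746, with overlapping groups.

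Livers of 1 group differed in the same direction in many of these genes. Among the Sedentary livers, replicate 5 had the highest level of 25 of the 39 genes and replicate 2 the lowest of 25. The median of the 38 tested members, relative to each gene's mean over the 12 livers, was 0.11 in Sedentary replicate 5 and -0.18 in Sedentary replicate 2 on the log2 scale. These levels hold the TMM factor of the library. It was 1.0868 in Sedentary replicate 2, the highest of the 12, and 0.97 in Sedentary replicate 5, the lowest of its group. Exercise replicate 3 had 0.9141, the lowest of the 12. The part of the factors in these differences was not tested. The members together took 2.97% of the counts in replicate 2 and 3.58% in replicate 5, and 3.04% to 3.52% in the Exercise livers. Exercise replicate 3 was highest of its group in 17 of the genes. The CV between livers had a median of 11.7% over the tested members in Sedentary and of 6.8% in Exercise livers, and it was larger in Sedentary livers for 31 of 38, which was not tested. F5, C6, C8a and C8b had the largest Sedentary CVs, from 21.15% to 25.1%, and F10, F2 and F12 the smallest Exercise CVs, from 1.16% to 1.8%. Exercise replicate 1 lay on the Sedentary side in 5 other genes of the table (Myh7, Ppp1r3g, Trim12a, Myh6 and Actc1), none of them a member. Without this liver 9 members were called, where 5020 of 12444 genes tested were called.

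**Figure D4:**
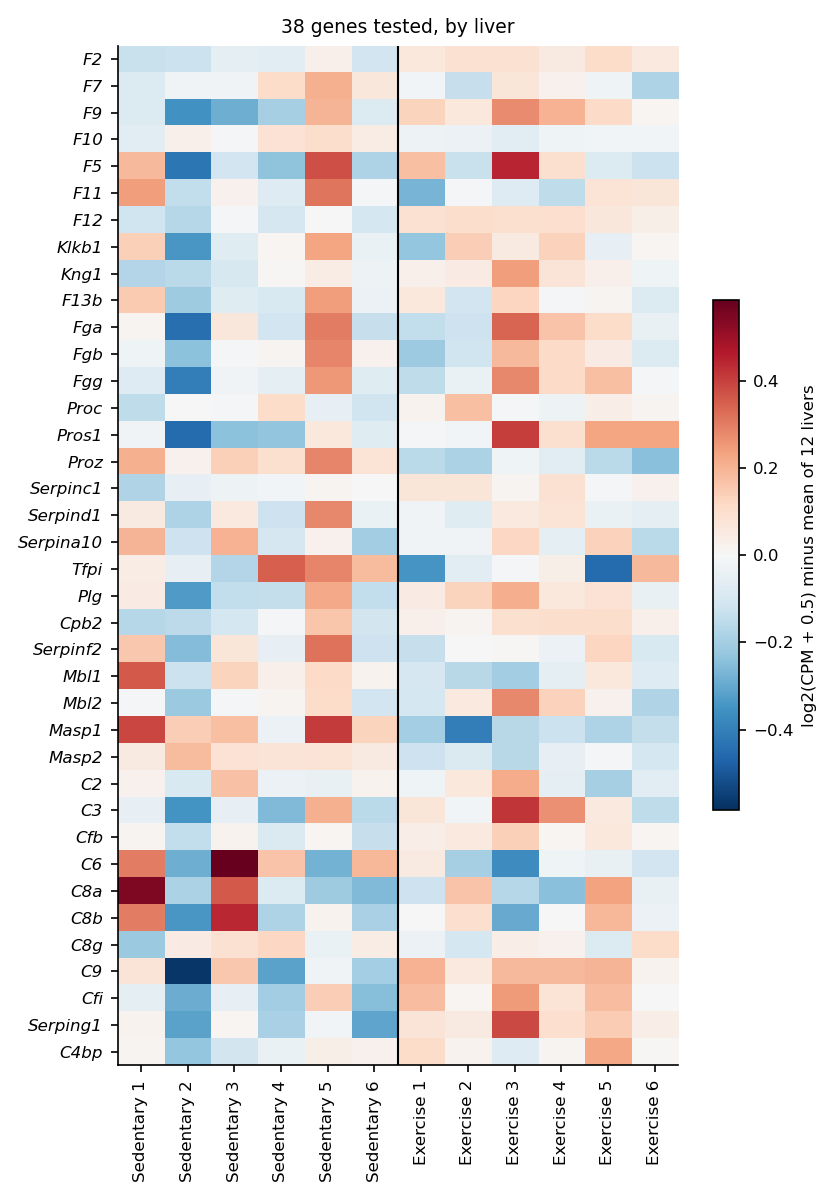
Level of each tested gene in each liver as log2(CPM + 0.5) minus its mean over the 12 livers, red above and blue below the mean. The column of Sedentary replicate 2 is mostly blue and that of Sedentary replicate 5 mostly red, while the rows of Masp1, Masp2 and Proz change colour between the groups.

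A list of 67 further genes of clotting, fibrinolysis and complement was compared in the same fit. In the table were 64 of them, 51 were tested, and 11 (21.6%) were called, with the background of 42.4% given above. Of the 11, 8 were higher and 3 lower, where 21.1% of all genes tested were called higher and 21.3% lower. The median log2 fold change of the list was 0.07. The groups did not overlap for 5 of the 51, where this held for 22.3% of all genes tested. Of the 51, 2 (F3 and Thbd) were called with a change of at least 2-fold, where this held for 3.94% of all genes tested. These 2 genes moved in opposite directions.

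F3 encodes tissue factor, the receptor of factor VIIa that starts clotting. It had 1.41, 2.2 and 3.34 CPM in Sedentary and 0.693, 0.879 and 1.1 CPM in Exercise livers. Every Exercise liver was below every Sedentary liver, with a log2 fold change of -1.37 (SE 0.214, edgeR adjusted p = 6.44e-05, two-sided exact permutation p = 0.00216). Thbd encodes thrombomodulin, the endothelial receptor that turns thrombin into an activator of protein C. Its level was 2.05, 2.6 and 2.9 CPM in Sedentary and 5.22, 6.57 and 9.17 CPM in Exercise livers. The groups lay far apart, with a log2 fold change of 1.47 (SE 0.156, edgeR adjusted p = 1.31e-06, two-sided exact permutation p = 0.00216). The ratio of Thbd to F3 within a library had a median of 1.28 in Sedentary and 7.09 in Exercise livers, a description of a pair chosen for its opposite changes.

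**Figure D5:**
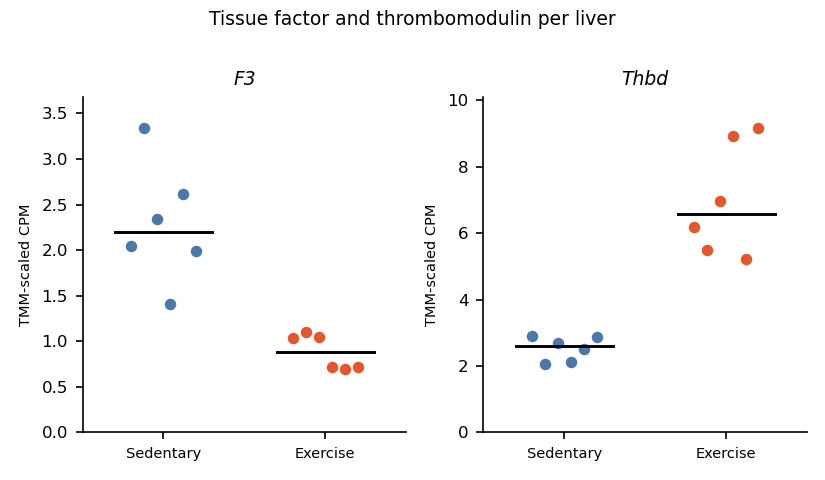
TMM-scaled CPM of F3 and Thbd in each liver, blue for Sedentary and orange for Exercise, with a line at the group median. The F3 median goes from 2.2 to 0.879 CPM and that of Thbd from 2.6 to 6.57 CPM, and the groups do not overlap for either gene.

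Some endothelial markers changed as well. Of 9 sinusoidal endothelial markers, 5 (55.6%) were called, where 42.4% of all genes tested were called. Stab1, Lyve1, Pecam1 and Oit3 rose, with log2 fold changes of 0.63, 1.18, 0.49 and 0.55, and Kdr fell (-0.19). Stab2, Clec4g, Fcgr2b and Gpr182 were not called, with -0.03, 0.23, 0.02 and 0.29. The summed level of the 9 was 180 to 255 CPM in Sedentary and 216 to 325 CPM in Exercise livers, and these ranges overlapped. Oit3 was not called with library size alone (edgeR adjusted p = 0.0817) and was called in 5 of the 12 fits that left out 1 liver, and Kdr in 4 of them. The part of endothelial content in the values of Thbd was not tested. None of 8 Kupffer cell markers was called, with summed levels of 68.8 to 118 CPM and 80.1 to 125 CPM. Among 8 stellate cell markers 2 fell, and of 6 hepatocyte markers Alb and Tat rose, with log2 fold changes of 0.24 and 1.83. Alb was not called with library size alone (0.15, edgeR adjusted p = 0.0626) and was called in 8 of the 12 fits that left out 1 liver.

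The other called genes of the list changed less and were named after their values were seen. Ggcx, the carboxylase that modifies the vitamin K-dependent factors, had 70.8, 72.4 and 82.6 CPM in Sedentary and 53.2, 61.3 and 64.5 CPM in Exercise livers, a log2 fold change of -0.30 without overlap (edgeR adjusted p = 0.000369). Furin, a proprotein convertase that matures many secreted proteins, had 133, 143 and 164 CPM in Sedentary and 184, 187 and 202 CPM in Exercise livers, a log2 fold change of 0.39 without overlap (edgeR adjusted p = 4.33e-05). The vitamin K reductase gene Vkorc1 had 0.04 and was not called. Serpine2 (protease nexin 1) and Hrg (histidine-rich glycoprotein) rose by 0.47 and 0.29 on the log2 scale, and F2r, the thrombin receptor, fell by 0.25. Of the complement genes, Clu (clusterin), Cfp (properdin), Colec10 (a collectin) and Cfhr2 (a factor H-related protein) rose, with log2 fold changes of 0.28, 0.32, 0.26 and 0.18. Hc, which encodes C5, had 0.08 and was not called. The lectin genes Fcna and Colec11 had 0.12 and 0.07 and were not called. With library size alone, Hrg, Cfp, Colec10 and Cfhr2 were not called. None of the 4 further fibrinolysis genes tested was called. The calls of F2r, Cfp, Colec10 and Cfhr2 held in 6, 5, 3 and 9 of the 12 fits that left out 1 liver, and those of Clu, Ggcx, Furin, Serpine2, F3 and Thbd in each of the 21 alternative analyses.

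RefSeq's promoter table held windows for 30 of the 39 genes, 32 windows in all, which were searched on both strands for 6 motifs known from liver-specific and acute-phase genes. The C/EBP motif TTGCNNAA occurred in 7 of the 32 windows (21.9%) against 9.56% of all 32851 windows, the HNF1 half-site GTTAAT in 7 (21.9%) against 6.43%, and the STAT motif TTCNNNGAA in 6 (18.8%) against 7.02%. The glucocorticoid receptor half-site TGTTCT occurred in 8 (25%) against 16.1% and the IL-6 type 2 element CTGGGAA in 5 (15.6%) against 9.1%. The HNF4 motif CAAAGTCCA occurred in none of the members' windows and in 0.384% of all windows. A STAT match can overlap an IL-6 type 2 element, as in Masp2. The members' windows held a median of 3 CpG dinucleotides, against 6 in all windows, with a median GC content of 49.2% against 52.4%. These are matches of letters and were not measured as binding sites.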

How the data were processed

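The authors sequenced liver RNA of 12 mice, and per the submitters' processing notes used Bowtie2 2.3.4.3, RSEM 1.3.1 and build mm10. The order of these steps, the annotation and the use of strand are not given in the sources used here. The deposited table holds an estimated count per gene and library, not scaled, of which 31.34% were not whole numbers, and an FPKM value, which the authors scaled for transcript length and depth. Columns were matched to samples by their labels.

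Counts were rounded and tested with edgeR 4.0.16 in R 4.3.3 (filterByExpr with a minimum count of 10, TMM factors, robust quasi-likelihood fit, group as the only term), with Benjamini-Hochberg adjustment over all 12344 genes tested and a threshold of 0.05. Genes varied between mice of 1 group by 11.28% (biological coefficient of variation), and levels are given as CPM after TMM scaling. Single genes were also compared by a two-sided exact permutation test of mean log2(CPM + 0.5) over all 924 relabellings. Totals of 18745379 to 19324461 counts make counting error small except for C5ar1, Tfpi, F3 and Thbd. The code was tested on simulated data.

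The members and lists were chosen with earlier results of these data known. Every member is named with its role, and full statistics are given for each of the 11 called members. Genes of the further list are named by rule where called with an absolute log2 fold change of at least 0.5 and a mean of at least 1 CPM, and others were named after their values were seen. Alternatives were other scalings (RLE, upper quartile, library size alone), other filters, DESeq2 1.42.0, limma-voom and limma 3.58.1 on log2(FPKM + 0.1), the replicate number as a block, a threshold of 0.01 and leaving out each liver. Ratios within a library and the overlap of FPKM ranges were added after seeing the data. Coordinates and promoter windows are from RefSeq on GRCm38.p6, and overlaps and transcripts from GENCODE vM21. Windows on chromosome 18 were not used here. Correlations used 100000 permutations in Python 3.11.15 with scipy 1.17.1. The labels number the samples, and p-values measure the spread between these 12 livers.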

Additional observations from a re-analysis of the deposited data

Results flagged for a closer look

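In 82 groups of 6 livers (39 members, F3 and Thbd, in each group), the gap between the extreme liver and its nearest neighbour was compared with the range of the group. In 8 groups it exceeded Dixon's critical value for 6 samples, where chance flags about 1 in 20 groups, or 4.1 here. Among called genes, Masp1 in Exercise replicate 2 was low (54.7 against 63.3 CPM in the next liver, 0.729 of the range), Masp2 in Sedentary replicate 2 was high (290 against 270 CPM, 0.758) and Serping1 in Exercise replicate 3 was high (854 against 724 CPM, 0.709). The other values were F10 in Exercise replicate 3, low (0.651), Kng1 in Exercise replicate 3, high (0.646), Proc in Exercise replicate 2, high (0.671), Serpinc1 in Sedentary replicate 1, low (0.654), and C5ar1 in Sedentary replicate 1, high (0.654, 0.85 against 0.459 CPM). The calls of Masp1, Masp2 and Serping1 held when the liver concerned was left out.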

How the results depend on the processing

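The count of called members was 11, and it was 10 with RLE size factors, 11 with upper quartile factors, 8 with library size alone, 9 without the low-count filter, 13 with DESeq2 and 10 with limma-voom. Over all genes tested, 5229 were called in the main fit, and 5216, 5278, 5502, 5034, 5208 and 5185 in the same order. The genes tested were 12344, or 17386 without the low-count filter. With limma on log2(FPKM + 0.1), which has no TMM factors, 7 members were called, 1 of them higher, where 5416 of 12344 genes tested were called. Library size alone gave 1 higher and 7 lower. At a threshold of 0.01, 4 members were called, 1 of them higher, and 6 of the further pathway genes instead of 11. The share of all genes tested at this threshold is not given here, so these drops have no background beside them. Leaving out 1 liver at a time gave 7 to 13 called members, 4 to 10 higher and 3 to 5 lower, and 8 to 11 of the further genes, with the lowest count of members without Sedentary replicate 6 (7 called, 4 higher). Over all genes tested, these fits called 4739 to 5222. No called member or further pathway gene changed sign under any of the 21 alternatives. Of 1071 comparisons of the log2 fold change of a tested member or named further gene with an alternative, 936 kept side and sign, 77 lost a call, 12 gained one and 46 changed sign with no call in either. Same-numbered Sedentary and Exercise livers deviated together in 2 of 6 pairs (correlations from -0.099 to 0.16). In these 2 pairs, replicates 1 and 2, the best match was the liver of the same number. Such correlations cannot settle whether the numbers pair the samples, and the labels do not say. With a replicate block, 9 members were called, 6 higher and 3 lower, and 11 of the further genes, and the calls of F2 (adjusted p = 0.0509 in edgeR) and Mbl1 (0.0501) were lost. The fit with the block called 4956 of 12344 genes tested. F2 was also lost with limma on FPKM (adjusted p = 0.351). Where a call was lost, the cause was not tested, and counts limit C5ar1, F3 and Thbd most.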
